A study of Rattus norvegicus with 18 samples.

Results

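The question addressed here is whether gene expression changed between 6 and 30 months of age by a different amount in the rat oculomotor nucleus than in the spinal cord. For each probe set, the change in log2 signal from 6 to 30 months was taken in each tissue, and the change in the cord was subtracted from the change in the oculomotor nucleus. A positive tissue difference therefore means that the oculomotor change lay above the cord change, and a value of 1 is a factor of 2. The contrast uses 12 of the 18 arrays of the study, 3 for each tissue and age as the titles label them: 30-month oculomotor nucleus, 6-month oculomotor nucleus, 30-month spinal cord and 6-month spinal cord. The remaining 6 arrays, from animals of 18 months, entered only the estimate of the spread. All animals were of the strain labelled F344BN, with no treatment or genetic change in the labels. Each array held RNA combined from 4 animals and was read as 1 signal per probe set, on the linear scale of Affymetrix Microarray Suite 5.0. P-values therefore measure the spread between pools and not between animals, and the sources used here do not say whether oculomotor and cord pools came from the same animals.

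The oculomotor nucleus is a group of motor neurons in the midbrain that drive most of the muscles moving the eye and lift the upper eyelid. Motor neurons of the trunk and limbs lie in the spinal cord, together with sensory and interneuron circuits and large tracts of myelin. In ageing rodent nervous tissue, microglia are known to express more major histocompatibility complex (MHC) class II molecules and complement, and oligodendrocytes make much of the cholesterol that goes into myelin.

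Regional markers separated the tissues. Th, the enzyme that makes the dopamine precursor, averaged 2292 ± 485 in the 30-month and 2563 ± 290.4 in the 6-month oculomotor nucleus, against 87.0 ± 37.7 in the 30-month and 115 ± 23.3 in the 6-month cord (mean ± SD, n = 3). The dopamine transporter Slc6a3 averaged 1438 ± 267 in the 30-month and 1426 ± 68.7 in the 6-month oculomotor nucleus, and 149 ± 11.4 in the 30-month and 156 ± 18.0 in the 6-month cord, so the midbrain samples held dopamine neuron transcripts. Hoxa5, a regional gene of the neck and upper trunk, averaged 17.6 ± 11.6 in the 30-month and 60.8 ± 45.9 in the 6-month oculomotor nucleus, and 886 ± 57.1 in the 30-month and 886 ± 185 in the 6-month cord. Chat, which makes acetylcholine in motor neurons, averaged 143 ± 32.7 in the 30-month and 155 ± 43.6 in the 6-month oculomotor nucleus, against 375 ± 31.2 in the 30-month and 367 ± 61.3 in the 6-month cord. Phox2a, a transcription factor that oculomotor neurons need in development, averaged between 117 and 132 in all 4 groups. Isl1, another motor neuron factor, was at or under the floor of 66.4 on 5 of the 6 oculomotor arrays. It was so too on 3 of the 3 30-month and 1 of the 3 6-month cord arrays. The samples are bulk tissue, so fewer cells of a type and less RNA per cell cannot be told apart in any value below.

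Several arrays differed in ways that the groups do not account for. After each group was centred on its mean, the leading principal component took 27.1% of the variance and its widest gap lay between 4 arrays and the other 14. The 4 arrays that stand apart were 30-month oculomotor replicate 3, 30-month cord replicate 3, 18-month cord replicate 3 and 6-month cord replicate 1, with scores from −16.6 to −12.1. The other arrays scored from −1.70 to 14.2, with 30-month oculomotor replicate 2 alone at that upper end and the next array at 9.01. Skeletal muscle transcripts were high on 6-month cord replicates 1 and 2, where the list averaged 9.93 and 10.48 on the log2 scale. The list averaged 8.73 on replicate 3 and 8.66 to 8.82 in the 30-month cord. Leaving out the muscle-rich arrays leaves replicate 3 as the only 6-month cord array. Every value given below without them therefore rests on that 1 pool for the 6-month cord. The ratio of the 3′ to the 5′ hexokinase control, which rises as RNA shortens, was 1.76 to 1.91 in the 30-month and 1.57 to 1.64 in the 6-month oculomotor nucleus, and 1.66 to 2.19 in the 30-month and 1.93 to 2.12 in the 6-month cord. The 3′ to 5′ beta-actin ratio was highest within its group on the 4 arrays that stand apart, at 1.26 to 1.54. The other arrays of those groups read 0.98 to 1.35. The hexokinase ratio was highest within its group on these arrays apart from 6-month cord replicate 1. The GAPDH ratio was so only on 30-month oculomotor replicate 3 and 18-month cord replicate 3. The part of RNA quality in the results, or in these arrays standing apart, was not tested.

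No probe set passed the test of the tissue difference. Of 9482 probe sets tested with limma, 0 had an adjusted p under 0.05 (0%), and the smallest adjusted p was 0.504. At an unadjusted p under 0.05 there were 519 (5.47%), of which 256 (2.7%) had the oculomotor change above the cord change and 263 (2.77%) had it below. The difference was positive in 4717 probe sets (49.7%) and its median was −0.00187. The median half-width of the unadjusted 95% interval was 0.427 log2 units. A smaller difference in either direction could not be told from 0 for a typical probe set, even before adjustment. The adjusted test asked for more, and the probe set with the smallest p, at −1.08, did not pass it. Only 24 probe sets (0.253%) had a measured difference over 2-fold in either direction. Under the other settings tried, the count was 0 in 28 of 31, and the exceptions were counts of 1 or 2.

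The changes themselves were also small, and as measured they correlated weakly between the tissues. Across the 9482 probe sets the change had an SD of 0.198 in the oculomotor nucleus and 0.212 in the cord, and the SD of their difference was 0.248. The changes of the tissues, which share no arrays, correlated across probe sets with a Pearson r of 0.27 and a Spearman rho of 0.23. This is a description, since genes are not independent replicates. The median standard error of the difference was 0.204, near its SD of 0.248, and error of that size lowers such a correlation. How far it did so was not tested, so these values do not show how alike the changes are without error. Same-numbered 30-month arrays of the tissues had deviations from their group means that correlated at 0.12 to 0.50. The part of this in the correlation of the changes was not tested. Within the oculomotor nucleus 20 probe sets were called at 30 against 6 months (0.211%), 17 that rose (0.179%) and 3 that fell (0.0316%). Within the cord 21 were called (0.221%), 16 that rose (0.169%) and 5 that fell (0.0527%). The tissues shared 7 of these (0.0738% of all probe sets), all rises, which is 35% of the oculomotor calls and 33.3% of the cord calls. Both counts depended on 1 array: without 6-month oculomotor replicate 2 the oculomotor count was 4 and without 30-month oculomotor replicate 1 it was 69, while without 30-month cord replicate 3 the cord count was 0 and without 6-month cord replicate 3 it was 43.

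**Figure D1:**
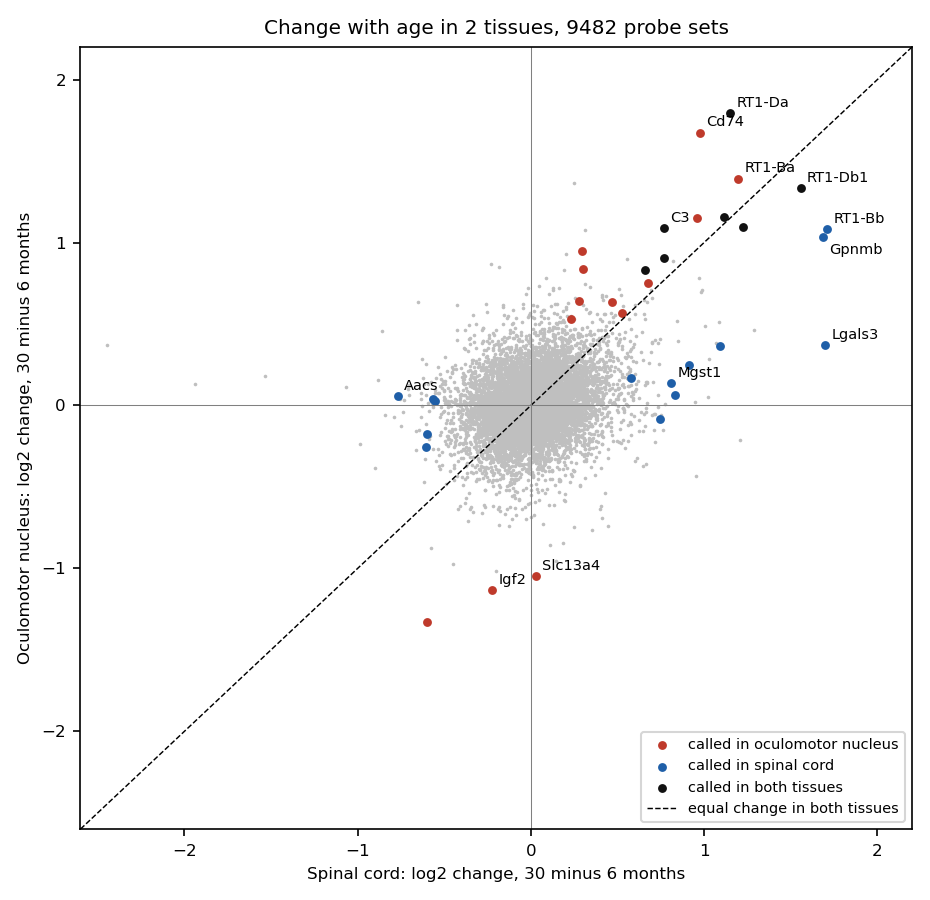
Change in log2 signal from 6 to 30 months in the oculomotor nucleus (vertical axis) against the spinal cord (horizontal axis) for 9482 probe sets, each a grey point. Red points were called within the oculomotor nucleus, blue within the cord and black within both, and distance from the dashed line is the tissue difference, which passed the test for 0 probe sets.

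The leading genes of each direction were picked by the p of this contrast, so their intervals are descriptions. Ages that do not overlap in them follow in part from that choice. The gene with the smallest p was Slc13a4, a sodium-coupled sulfate transporter known from the meninges and choroid plexus. Its signals were 156, 188 and 147 in the 30-month oculomotor nucleus and 310.1, 368 and 334 in the 6-month oculomotor nucleus, against 745, 701 and 585 in the 30-month cord and 751, 529 and 724 in the 6-month cord. The oculomotor ages did not overlap, with the 30-month pools lower, while the cord ages overlapped. The tissue difference was −1.08 (95% interval −1.54 to −0.62, limma adjusted p = 0.504). Within the oculomotor nucleus alone Slc13a4 fell by 1.05 on the log2 scale (limma adjusted p = 0.00398), and 18-month pools had 203, 254 and 249.6. Fibin, which encodes a secreted protein known from zebrafish fin development, had a like pattern. It read 131, 81.9 and 114 in the 30-month and 161, 221 and 198 in the 6-month oculomotor nucleus, against 378, 315 and 313 in the 30-month and 284, 274 and 326 in the 6-month cord. Its difference was −1.03 (−1.54 to −0.51).

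Polb, the DNA polymerase that fills gaps in base excision repair, had changes of opposite sign. Its signals were 224, 285 and 167 in the 30-month and 313, 328 and 319.6 in the 6-month oculomotor nucleus, against 246, 222 and 233 in the 30-month and 192, 182 and 149.7 in the 6-month cord. The ages did not overlap in either tissue, lower at 30 months in the oculomotor nucleus and higher in the cord, with a difference of −0.97 (−1.45 to −0.48, limma adjusted p = 0.635). A second probe set of Polb, brighter on average, had a difference of −0.21. Timm17b, a part of the channel that imports proteins into mitochondria, had the largest of these differences at −1.38 (−2.12 to −0.65). It read 204, 165 and 201 in the 30-month and 242, 299.7 and 229 in the 6-month oculomotor nucleus, against 174, 155 and 202 in the 30-month and 76.1, 23.4 and 148 in the 6-month cord. The lowest cord array was under the floor and counted at it, and leaving out the muscle-rich 6-month cord arrays moved the difference to −0.68.

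Gpx3, a secreted glutathione peroxidase, was called within the cord. Its signals were 1318, 1335 and 1451 in the 30-month and 1368, 1410.2 and 1571 in the 6-month oculomotor nucleus, against 1560.0, 1384 and 1966 in the 30-month and 812, 1137 and 971 in the 6-month cord. The 30-month cord was above the 6-month cord on every array, the oculomotor ages overlapped, and the difference was −0.83 (−1.28 to −0.38, limma adjusted p = 0.665). Within the cord Gpx3 rose by 0.75 (limma adjusted p = 0.0443). Other genes whose oculomotor change lay below the cord change were Ube2o, a ubiquitin-conjugating enzyme, at −1.02, Nudt4, a hydrolase of inositol pyrophosphates, at −0.52, and Cmpk1, a kinase that makes pyrimidine nucleotides, at −0.69. Prkaa1, a catalytic subunit of the energy sensor AMPK, stood at −0.71 and Sv2b, a synaptic vesicle protein, at −0.70. A brighter probe set gave −0.26 for Nudt4 and another −0.22 for Sv2b. The oculomotor change of Sv2b was 0.07 on the brighter probe set and −0.53 on the probe set named here. None passed the test, and limma's adjusted p lay between 0.504 and 0.665 for the 10 genes of this direction.

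In the other direction Atg13 had the smallest p. It encodes a subunit of the kinase complex that starts autophagy. Its signals were 875, 986 and 933 in the 30-month and 725, 626 and 764 in the 6-month oculomotor nucleus, against 643, 845 and 729 in the 30-month and 1002, 904 and 925 in the 6-month cord. The ages did not overlap in either tissue and ran in opposite directions, higher at 30 months in the oculomotor nucleus and lower in the cord. The difference was 0.76 (0.44 to 1.09, limma adjusted p = 0.504), and the 18-month pools read 847, 760.3 and 723 for the oculomotor nucleus and 841, 812 and 911 for the cord.

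Tprn, the stereocilia protein taperin, read 636, 549 and 511 in the 30-month and 429, 417 and 445 in the 6-month oculomotor nucleus, against 492, 569 and 614 in the 30-month and 814, 635 and 656 in the 6-month cord. Pacsin3, which bends membranes in endocytosis, read 509, 423 and 609 in the 30-month and 341, 371 and 373 in the 6-month oculomotor nucleus, against 605, 669 and 644 in the 30-month and 801, 896 and 766 in the 6-month cord. In both genes the ages did not overlap in either tissue and ran in opposite directions, with differences of 0.71 (0.36 to 1.07) and 0.85 (0.41 to 1.29). Klc1, a light chain of the kinesin motor of axonal transport, had a difference of 0.82 (0.42 to 1.21) on the probe set named here. Its brighter probe sets gave −0.12 and −0.36, so the probe sets of Klc1 disagree in sign. Mpnd, a protein with an MPN domain, read 720.0, 778 and 815 in the 30-month and 764, 733 and 754 in the 6-month oculomotor nucleus, against 453, 524 and 517 in the 30-month and 782, 691 and 739 in the 6-month cord. Only its cord ages were apart, with a fall of 0.57 on the log2 scale (limma adjusted p = 0.0142) and a tissue difference of 0.60 (0.31 to 0.90). Rfx1, a transcription factor, stood at 1.04, and St6galnac6, a sialyltransferase of gangliosides, at 0.61.

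**Figure D2:**
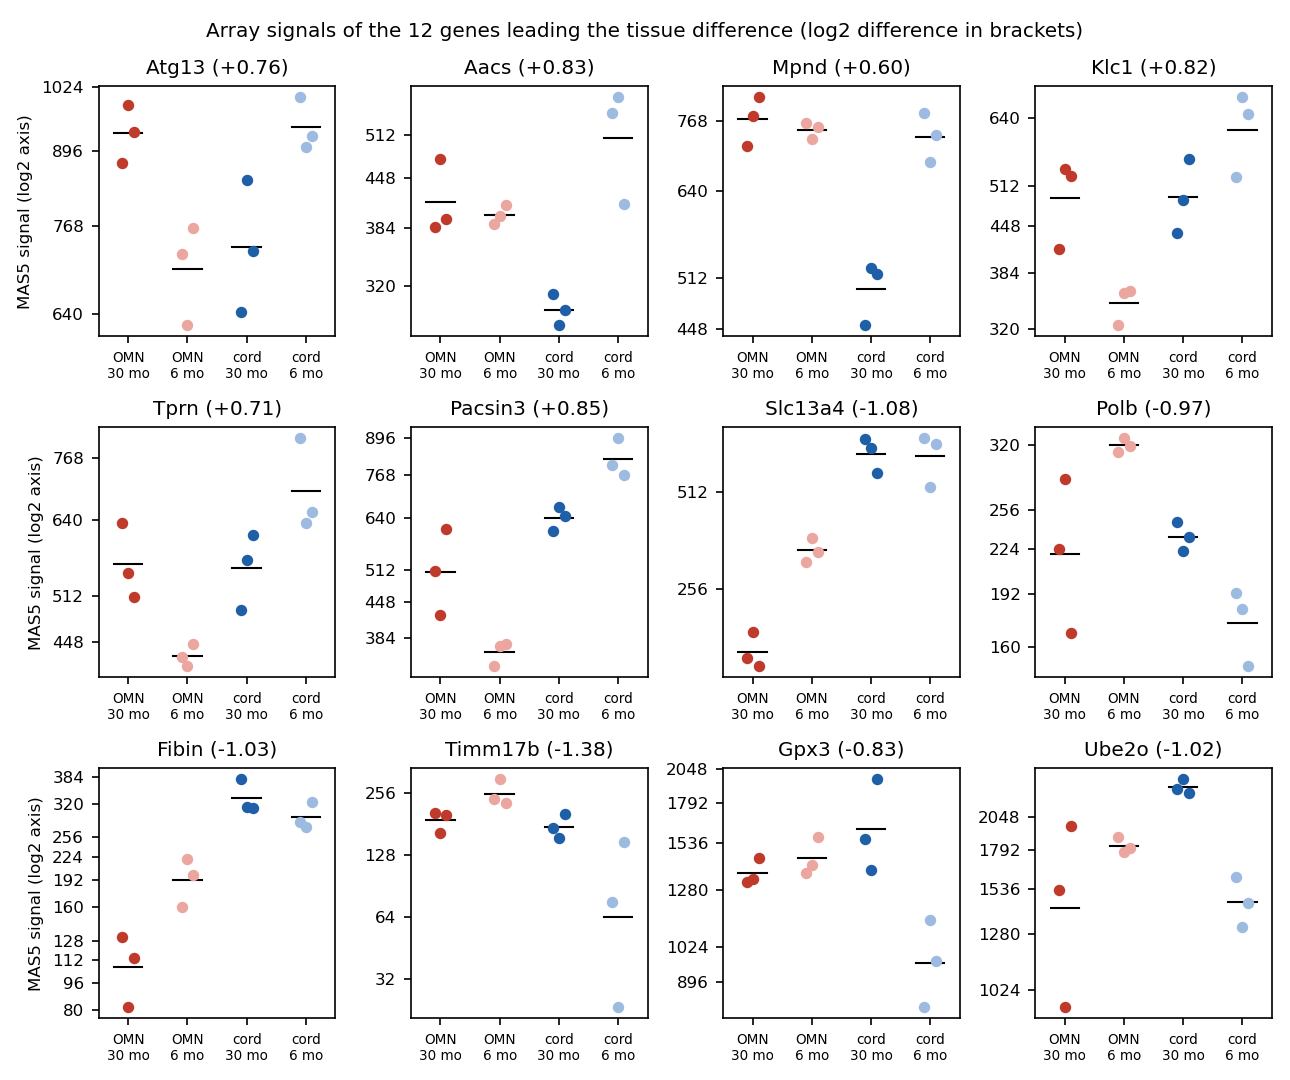
Signal on each array (log2 axis, 1 point per pool of 4 animals, bar at the mean of log2 signals) for the 6 genes of each direction with the smallest p. OMN is the oculomotor nucleus, cord is the spinal cord, and each panel has its own axis. In Atg13, Tprn, Pacsin3, Polb and Timm17b the ages separate in both tissues and in opposite directions.

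Opposite changes of this kind were few. Taken singly, the ages did not overlap in 1317 probe sets (13.9%) in the oculomotor nucleus and in 1238 (13.1%) in the cord. In 33 probe sets (0.348%) the 30-month and 6-month arrays did not overlap in either tissue and ran in opposite directions, 18 (0.19%) with the oculomotor nucleus higher and the cord lower at 30 months and 15 (0.158%) the other way. In 216 probe sets (2.28%) they did not overlap and ran in the same direction, 133 (1.4%) higher at 30 months in both tissues and 83 (0.875%) lower in both. Among the opposite ones was Stat2, a signal carrier of interferon receptors, with 473, 458 and 474 in the 30-month and 413, 392 and 378 in the 6-month oculomotor nucleus, against 382, 383 and 394 in the 30-month and 442, 470.0 and 442 in the 6-month cord. Its difference was 0.47 (0.14 to 0.80), not past the test (limma adjusted p = 0.78). A wider count takes in all 33 opposite ones. It asked that each of the 9 pairs of 30-month and 6-month oculomotor arrays gave a change above, or below, each of 9 cord pairs. It was met by 175 probe sets (1.85%), 90 above (0.949%) and 85 below (0.896%).

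Several genes of lipid synthesis had tissue differences on the same side, above 0. Aacs, the cytosolic enzyme that turns the ketone body acetoacetate into acetyl units for lipid synthesis, read 385, 474 and 394 in the 30-month and 388, 398 and 412 in the 6-month oculomotor nucleus, against 313, 284 and 297 in the 30-month and 548, 575 and 413 in the 6-month cord. The oculomotor ages overlapped, the 30-month cord lay below the 6-month cord on every array, and the difference was 0.83 (0.43 to 1.23, limma adjusted p = 0.635). Within the cord Aacs fell by 0.77 on the log2 scale (limma adjusted p = 0.0142). Leaving out the muscle-rich 6-month cord arrays gave a difference of 0.53.

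Lss, lanosterol synthase, which closes the sterol ring, read 491, 646 and 516 in the 30-month and 521, 469 and 549.6 in the 6-month oculomotor nucleus, against 853, 740.0 and 742 in the 30-month and 1193, 1159 and 1076 in the 6-month cord. Its difference was 0.65 (0.31 to 0.99) and was not past the test. Msmo1, an oxidase of sterol intermediates, read 2239.9, 2600.2 and 2593 in the 30-month and 2428, 2621 and 2071 in the 6-month oculomotor nucleus, against 2202, 2576 and 1950.3 in the 30-month and 3980.1, 4108 and 2920.4 in the 6-month cord. In both genes the cord ages did not overlap and the oculomotor ages did, and Msmo1 had a difference of 0.77 (0.32 to 1.22). Scd, the desaturase that makes oleate, read 287, 278 and 238 in the 30-month and 227, 288 and 269.9 in the 6-month oculomotor nucleus, against 522, 552 and 468 in the 30-month and 861, 1054 and 681 in the 6-month cord, a difference of 0.77 (0.30 to 1.23). Cyp51 and Acss2 fell within the cord by 0.60 and 0.60 on the log2 scale (limma adjusted p = 0.0142 for each), and their differences were 0.43 and 0.35. Leaving out the muscle-rich 6-month cord arrays moved the difference to 0.46 for Msmo1, 0.45 for Scd and 0.24 for Cyp51, while Lss stood at 0.57. Abcg1, which exports cholesterol from cells, had 1.04 (0.45 to 1.62) on the probe set named here, while its brighter probe set gave −0.09.

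Of the 28 genes listed for cholesterol synthesis and sterol sensing, 22 were on the array and 21 passed the filter on dim probe sets. The tissue difference was positive in 17 of the 21 and its median was 0.18, against 49.7% positive and a median of −0.00187 over all probe sets. The median change was −0.11 in the oculomotor nucleus and −0.30 in the cord. Without the muscle-rich 6-month cord arrays, which leaves replicate 3 alone in that group, 17 of the 21 were again positive, with a median of 0.17. Leaving out the 4 arrays that stand apart gave 17 and 0.15. Besides Lss and Msmo1, positive members included Ebp at 0.70 (0.37 without the muscle-rich arrays), Insig1 at 0.51 and Sc5d at 0.36, and the 4 negative members were Mvk, Pmvk, Insig2 and Srebf1, between −0.23 and −0.00. Of the 20 measured members for acetyl-CoA supply and fatty acid synthesis, 14 were positive, with a median difference of 0.12 and median changes of 0.01 in the oculomotor nucleus and −0.17 in the cord. The fatty acid ligase Acsl4 ran the other way at −0.40. No member of either list passed the test of the difference.

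The mean log2 signal of the sterol list was 9.37 to 9.49 in the 30-month and 9.51 to 9.58 in the 6-month oculomotor nucleus, against 9.51 to 9.65 in the 30-month and 9.88 to 9.96 in the 6-month cord. The ages did not overlap in either tissue, and the gap was wider in the cord. At 18 months it stood at 9.41 to 9.49 in the oculomotor nucleus and 9.47 to 9.55 in the cord.

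Genes of MHC class II presentation, which shows peptides to helper T cells, were among those that rose most in each tissue. RT1-Da, the alpha chain of the rat equivalent of HLA-DR, read 1424, 823 and 929 in the 30-month and 291, 315 and 283 in the 6-month oculomotor nucleus, against 2103, 2787 and 3927 in the 30-month and 1135, 1321 and 1401 in the 6-month cord. No age overlapped with the other in either tissue, and the levels in the 6-month cord were already above 2 of the 3 30-month oculomotor levels. RT1-Da rose by 1.80 in the oculomotor nucleus (limma adjusted p = 0.00019) and by 1.15 in the cord (limma adjusted p = 0.0142) on the log2 scale. Genes called within a tissue were picked on part of this contrast, so their tissue differences are descriptions: for RT1-Da it was 0.64 (95% interval 0.07 to 1.22). It was 0.41 without 30-month oculomotor replicate 1 and 0.43 without 30-month cord replicate 1, and leaving out the 4 arrays that stand apart gave 1.04.

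Cd74, the invariant chain that guards the class II groove, read 1909, 1183 and 1270.5 in the 30-month and 541, 475 and 344 in the 6-month oculomotor nucleus, against 3299, 3182 and 5145 in the 30-month and 1581, 2351 and 1918 in the 6-month cord. Its difference was 0.70 (0.05 to 1.36), and 1.15 without the 4 arrays that stand apart. RT1-Bb, the beta chain of the HLA-DQ equivalent, differed the other way at −0.63 (−1.45 to 0.20). It read 482, 300.3 and 342 in the 30-month and 178, 183 and 159.6 in the 6-month oculomotor nucleus, against 826, 966 and 1854 in the 30-month and 233, 459 and 395 in the 6-month cord, with 30-month cord replicate 3 far above the other arrays. Without that array the difference was −0.28, without 6-month cord replicate 1 it was −0.34, and without the 4 arrays that stand apart it turned to 0.07, so its side rests on these arrays. The class II chains are close relatives, and the probe set of RT1-Db1 is of a type that can match more than 1 transcript. RT1-Ba stood at 0.19 and RT1-Db1 at −0.23, with intervals of −0.58 to 0.97 and −0.98 to 0.53. Over the 8 measured class II members the median difference was 0.13, and the median change was 1.21 in the oculomotor nucleus and 1.06 in the cord, with 6 members above 0 and 2 below. Without the 4 arrays that stand apart all 8 were above 0, with a median of 0.33.

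The promoters of the 4 class II chains are shown because each of these genes rose in at least 1 of the tissues. Class II promoters are known to carry a conserved Y box, which holds a CCAAT motif in reverse. Each line gives the 150 bases before the promoter start listed for the gene, from RefSeq on build GRCr8. They run 5′ to 3′ on the strand of the gene, with CTGATTGG in capitals. For RT1-Da and RT1-Db1 the stretch runs a short way into the annotated gene, whose upstream bounds are 4515393 and 4560182.
RT1-Da (chr20:4515265-4515414, + strand): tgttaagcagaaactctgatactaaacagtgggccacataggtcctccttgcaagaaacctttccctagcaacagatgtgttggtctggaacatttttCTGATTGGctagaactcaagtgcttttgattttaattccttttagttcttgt
RT1-Db1 (chr20:4560163-4560312, - strand): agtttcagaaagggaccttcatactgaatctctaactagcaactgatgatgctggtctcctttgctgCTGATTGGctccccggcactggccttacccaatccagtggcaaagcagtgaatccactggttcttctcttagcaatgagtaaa
RT1-Ba (chr20:4576907-4577056, + strand): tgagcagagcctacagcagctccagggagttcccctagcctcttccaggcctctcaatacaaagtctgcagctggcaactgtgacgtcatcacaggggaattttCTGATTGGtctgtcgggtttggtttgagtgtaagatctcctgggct
RT1-Bb (chr20:4604119-4604268, - strand): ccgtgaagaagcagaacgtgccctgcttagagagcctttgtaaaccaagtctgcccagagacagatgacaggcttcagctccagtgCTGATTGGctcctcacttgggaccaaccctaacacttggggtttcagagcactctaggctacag
The letters CTGATTGG were searched on both strands of windows running from 250 bases before to 50 bases after each promoter start. They were found in 1172 of 33469 windows of rat genes (3.5%). All 4 class II genes held them, with the match beginning 52 bases before the promoter start in RT1-Da, 83 in RT1-Db1, 46 in RT1-Ba and 64 in RT1-Bb. The window of Cd74 held no match, though its listed promoter start lies inside the annotated gene, which begins at 56527071. Of the 20 genes leading the tissue difference, 13 had a window and 1 of those held a match. A match is a run of letters and not a measured site.

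Complement and microglial genes rose or had positive median changes in both tissues. C3, the central complement component, read 1199, 1099 and 1176 in the 30-month and 486, 555 and 596 in the 6-month oculomotor nucleus, against 2335, 2339 and 3188 in the 30-month and 1541, 1573 and 1447 in the 6-month cord. The ages did not overlap in either tissue and the difference was 0.32 (−0.07 to 0.71). The 7 genes that rose in both tissues were C3, RT1-Da, RT1-Db1, Plek, Fcgr2b, Mpeg1 and Golm1. Their tissue differences ran from −0.23 to 0.64 on the probe sets called. Dimmer probe sets gave −0.46 for Mpeg1 and −0.12 for Golm1, against 0.14 and 0.17 on those called, so the side of both differs between probe sets. Plek, a signalling protein of blood-derived cells, stood at 0.04 and the inhibitory antibody receptor Fcgr2b at −0.12. The microglia and macrophage list had 19 measured members with a median difference of 0.04, from median changes of 0.44 in the oculomotor nucleus and 0.41 in the cord. Parp9, an interferon-induced protein, rose in the oculomotor nucleus by 0.84 (limma adjusted p = 0.0438) and had a difference of 0.54, or 0.34 without the muscle-rich 6-month cord arrays.

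The 18-month levels of these genes are given as values with no test, since the 6-month arrays are shared between the ages compared. At 6, 18 and 30 months, oculomotor RT1-Da averaged 296 ± 16.9, 429 ± 25.0 and 1059 ± 321, and cord RT1-Da averaged 1286 ± 137, 3020.1 ± 462 and 2939 ± 921 (mean ± SD, n = 3). Oculomotor C3 averaged 546 ± 55.6, 856 ± 28.6 and 1158 ± 52.4 at those ages, and cord C3 averaged 1521 ± 65.5, 2923 ± 570.0 and 2620.3 ± 491. In the cord the 18-month means of both genes were at or above the 30-month means, and in the oculomotor nucleus they lay between the 6-month and 30-month means.

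**Figure D3:**
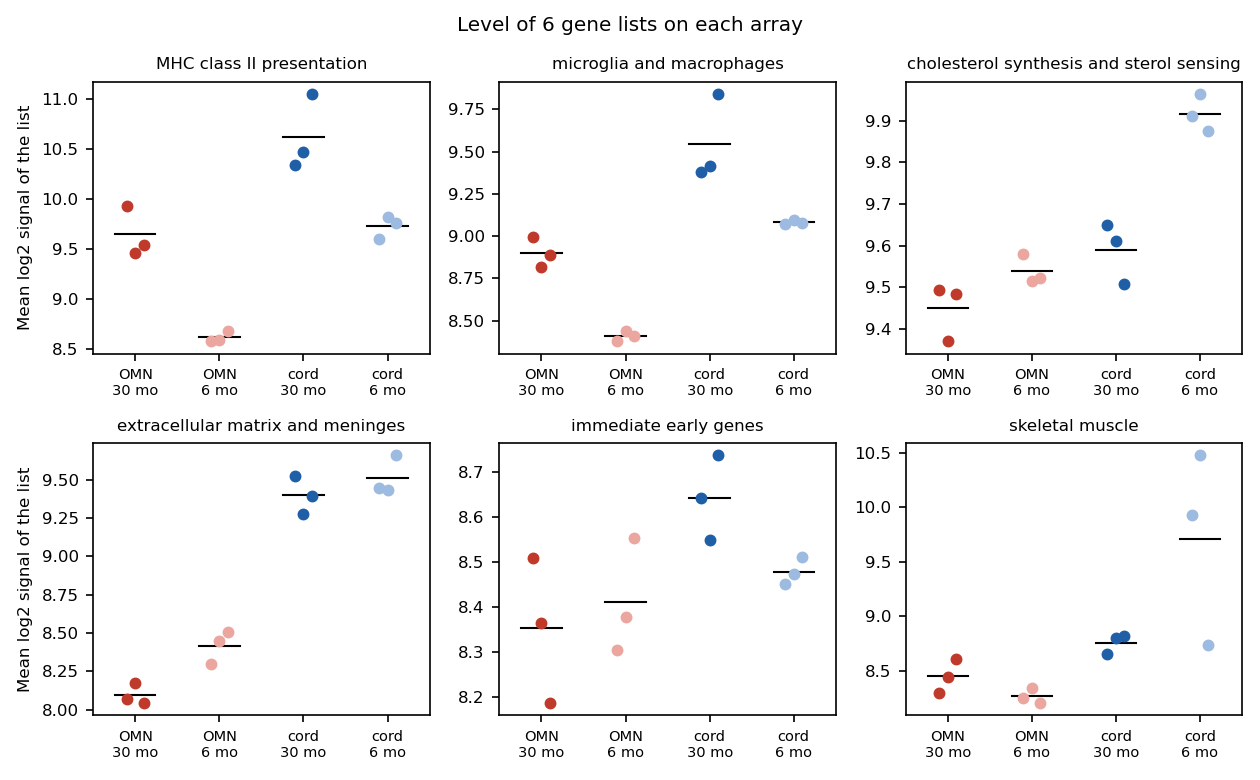
Mean log2 signal of 6 gene lists on each of the 12 arrays (points, with a bar at the group mean). MHC class II and microglial levels are higher at 30 months in both tissues, the sterol list has its widest gap between the ages in the cord, the matrix and meninges list differs between ages in the oculomotor nucleus, and the skeletal muscle list is high on 6-month cord replicates 1 and 2.

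Lgals3 and Gpnmb, both known from phagocytes loaded with lipid, rose within the cord. Lgals3, galectin-3, a lectin of activated phagocytes, read 221, 207 and 132 in the 30-month and 145, 139 and 139 in the 6-month oculomotor nucleus, against 1085, 1035 and 2501 in the 30-month and 412, 475 and 419 in the 6-month cord. The cord ages did not overlap and the oculomotor ages did, and the difference was −1.33 (−2.13 to −0.52). Lgals3 rose in the cord by 1.70 (limma adjusted p = 0.0127). Leaving out the arrays that stand apart, among them the highest one, 30-month cord replicate 3, moved the difference to −0.65. Gpnmb, a glycoprotein of lysosome-rich macrophages, read 478, 369 and 464 in the 30-month and 221, 191 and 225 in the 6-month oculomotor nucleus, against 800.1, 748 and 1788 in the 30-month and 359, 296 and 302 in the 6-month cord. Here the ages did not overlap in either tissue, and the difference of −0.65 had an interval from −1.47 to 0.17. Without 30-month cord replicate 3 the Gpnmb difference was −0.25.

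Cathepsin E, Ctse, an endosomal protease, stood at −0.67 (−1.16 to −0.18), or −0.42 without the 4 arrays that stand apart. Mgst1, a membrane-bound glutathione transferase, rose in the cord by 0.81 (limma adjusted p = 0.0127) and had a difference of −0.67 (−1.06 to −0.28). Over the 25 measured members for lipid-laden phagocytes and lysosome, 17 were negative with a median difference of −0.10. That side rests on few arrays: 8 were negative without the 4 arrays that stand apart (median 0.04) and 10 without the muscle-rich 6-month cord arrays (median 0.02). Of the genes called within the cord, Gnb2, a G protein subunit, had 0.58 on the probe set called, while its brighter probe set gave −0.39.

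**Figure D4:**
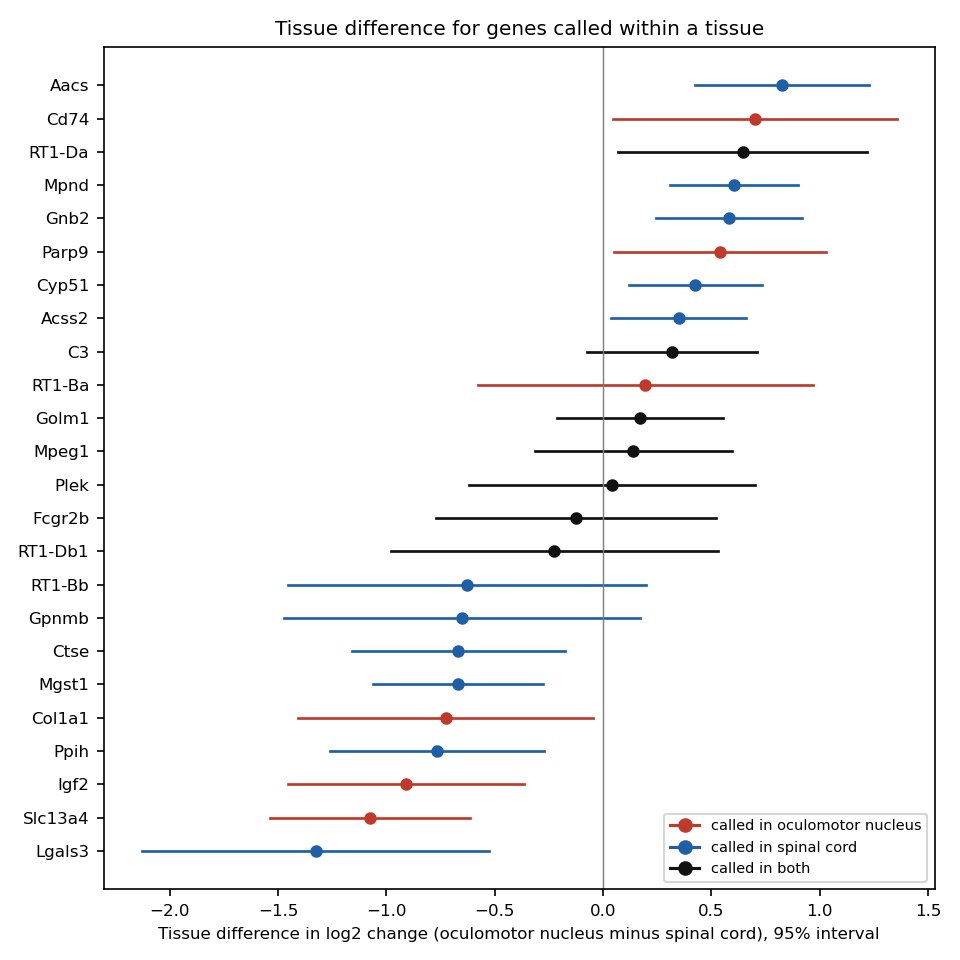
Tissue difference in log2 change (point) with its 95% interval (line) for genes called at 30 against 6 months in the oculomotor nucleus (red), the cord (blue) or both (black). Since the genes were picked on part of the contrast, the intervals are descriptions. The genes called in both tissues have intervals that span 0 apart from RT1-Da.

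The genes that fell in the oculomotor nucleus were transcripts of the meninges and extracellular matrix. Igf2, an insulin-like growth factor made by the meninges and choroid plexus in adult brain, read 534, 595 and 462 in the 30-month and 1251, 1290.3 and 959 in the 6-month oculomotor nucleus, against 2201, 1406 and 1367 in the 30-month and 1913, 1535 and 2298 in the 6-month cord. The oculomotor ages did not overlap, the cord ages did, and the difference was −0.91 (−1.45 to −0.36). Col1a1, a chain of collagen I, fell in the oculomotor nucleus by 1.33 on the log2 scale (limma adjusted p = 0.0159) with a difference of −0.73, though a dimmer probe set of the gene gave 0.13. Of the 28 measured members of the list 20 had a negative difference, with a median of −0.15 and median changes of −0.24 in the oculomotor nucleus and −0.06 in the cord. Without the muscle-rich 6-month cord arrays 14 of the 28 were negative, with a median of −0.04. The 6-month cord was then replicate 3 alone, which at 9.66 had the highest list level of its group. Slc13a4, Igf2 and Col1a1 were the members that fell in the oculomotor nucleus.

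The summed level of the list differed more between tissues than between ages. Its mean log2 signal was 8.04 to 8.17 in the 30-month and 8.30 to 8.50 in the 6-month oculomotor nucleus, and 9.28 to 9.52 in the 30-month and 9.43 to 9.66 in the 6-month cord. With the list's level in the model, computed without Slc13a4, Igf2 and Col1a1, which were called here, the difference was −0.98 for Slc13a4 and −0.79 for Igf2. Ttr, the defining transcript of the choroid plexus, was scattered within the 6-month oculomotor group, from 125 to 3720, and lay between 129.5 and 516 in the 30-month oculomotor group.

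Skeletal muscle transcripts gave the widest differences and rest on 2 arrays. Atp2a1, the calcium pump of fast muscle, read 114, 196 and 189 in the 30-month and 108, 154 and 117 in the 6-month oculomotor nucleus, against 105, 148 and 129 in the 30-month and 898, 1978 and 182 in the 6-month cord. The high values are those of 6-month cord replicates 1 and 2, and the difference was 2.82 (0.94 to 4.69, limma adjusted p = 0.748). Without those arrays it was 0.90, and for Acta1, muscle actin, it was −0.21 in place of 2.07. Acta1 averaged 306 ± 114 in the 30-month and 269 ± 24.2 in the 6-month oculomotor nucleus (mean ± SD, n = 3). It averaged 320 ± 23.9 in the 30-month and 1964 ± 1689 in the 6-month cord. All 8 measured members were positive, with a median of 0.92, and 5 of the 8 without those arrays, with a median of 0.15. Of 34 members on the array, only these 8 passed the filter on mean signal. High values on those 2 arrays enter that mean, so the filter favoured members high there. The shared side of the 8 is therefore not support for a tissue difference.

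Among the neuronal lists no member passed the test, and the median difference of a list lay between −0.08 for GABA and glycine transmission and 0.10 for voltage-gated channels. Calb2, the calcium buffer calretinin, read 3176, 3333 and 3779 in the 30-month and 4625, 5036 and 4769 in the 6-month oculomotor nucleus, against 2282, 2541 and 2408 in the 30-month and 1427, 2381 and 2285 in the 6-month cord. Its oculomotor ages did not overlap, lower at 30 months, and the difference was −0.77 (−1.26 to −0.29, limma adjusted p = 0.712). Kcnj6, a G protein-gated potassium channel of dopamine neurons, had 0.69 (0.23 to 1.14), and Scn2b, a sodium channel beta subunit, had −1.12 (−1.95 to −0.30). Vamp1, a vesicle fusion protein, had −0.50 on its brightest probe set and −0.24 and 0.36 on the others, and the first became −0.26 without the muscle-rich 6-month cord arrays. The 8 measured motor neuron and cholinergic genes had a median difference of −0.03, and Chat had −0.15 (−0.79 to 0.50). The 21 synaptic vesicle genes had a median of −0.07, and the 54 oxidative phosphorylation genes had a median of −0.005 from changes of −0.12 in the oculomotor nucleus and −0.11 in the cord.

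The immediate early genes, which neurons switch on within minutes of stimulation, were negative in 13 of 13 measured members, with a median difference of −0.15. Their median change was −0.03 in the oculomotor nucleus and 0.15 in the cord. Fos had the widest value at −0.65 (−1.53 to 0.22), with 458, 255 and 155 in the 30-month and 231, 327 and 396 in the 6-month oculomotor nucleus, against 246, 219 and 371 in the 30-month and 202, 169.7 and 247 in the 6-month cord. The ages overlapped in both tissues, and 0 of the 13 had an unadjusted p under 0.05. Without the 4 arrays that stand apart 9 of the 13 were negative and Fos stood at −0.04, and without the muscle-rich 6-month cord arrays 10 were negative and Fos stood at −0.37. Gfap, the astrocyte filament, read 6842, 5952 and 7689.9 in the 30-month and 5455, 5023 and 5068 in the 6-month oculomotor nucleus, against 10092, 9431 and 12645 in the 30-month and 11091, 10553 and 14116 in the 6-month cord. The oculomotor ages did not overlap, higher at 30 months, and the cord ages did, with a difference of 0.54 (0.16 to 0.93, limma adjusted p = 0.789). Vim, a filament of reactive astrocytes and other cells, had −0.63, so the astrocyte list as a whole, with a median of 0.02 over 16 members, had no common side. Mbp, a myelin protein, averaged 14346 ± 3165 in the 30-month and 13364 ± 1438 in the 6-month oculomotor nucleus (mean ± SD, n = 3). In the cord it averaged 12398 ± 2579 at 30 and 16850 ± 4710 at 6 months. Its difference was 0.51, from 0.11 to 0.87 over the alternatives. The 17 measured myelin and oligodendrocyte genes had a median difference of 0.05, with 13 above 0 and 4 below.

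**Figure D5:**
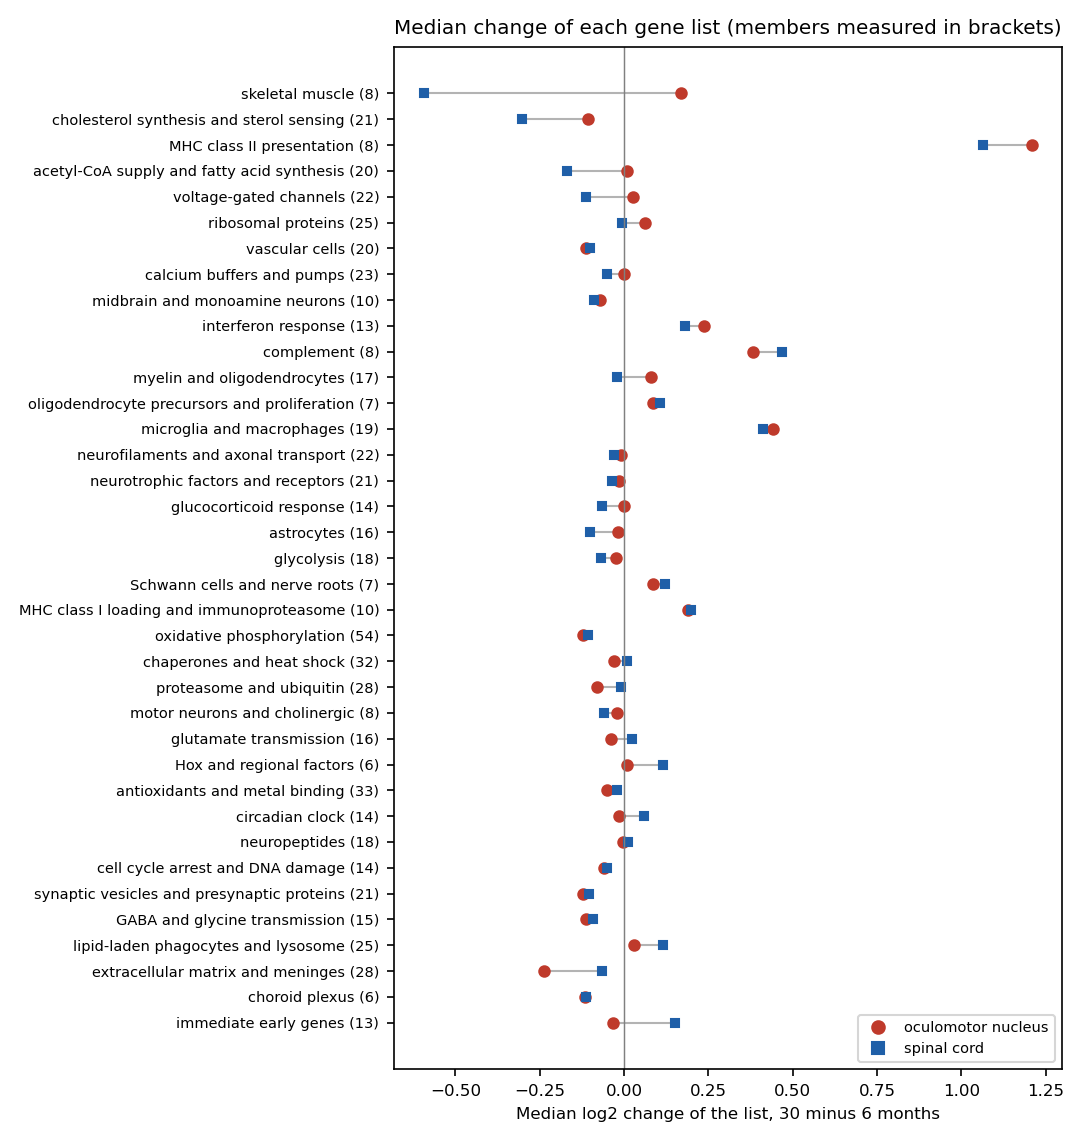
Median log2 change from 6 to 30 months of each gene list in the oculomotor nucleus (red circles) and the spinal cord (blue squares), ordered by the median tissue difference of the members, with the number of measured members in brackets. Of the lists drawn, which have 3 or more measured members, skeletal muscle has the highest median difference at 0.92 and the sterol list comes next at 0.18.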

How the data were processed

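Total RNA of 18 pooled tissue samples was hybridised to Affymetrix Rat Genome RA230 arrays, 1 array per sample. Per the series' design text, each sample combined tissue from 4 animals and signals were computed by the authors in Affymetrix Microarray Suite 5.0. The deposited table gives 1 linear intensity per probe set and array, with no detection calls. The design text speaks of 4 replicates per group, while the titles give 3, and the titles were followed. No genome build is named for the table, so no gene coordinates were taken from it.

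Intensities were brought to a common 2% trimmed mean, raised to a floor at the pooled 20th percentile (66.4) and taken to log2. Of 15923 probe sets, 57 controls were removed and those with a mean log2 signal above the pooled 40th percentile (7.459) were kept, which left 9482. Array number, 3 per group, limits the precision. Names came from the platform annotation, updated through Entrez identifiers: 12789 probe sets named 1 gene, 312 several and 2822 none.

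In limma 3.58.1 (R 4.3.3), a model with a mean for each of 6 groups took in all 18 arrays (eBayes with trend, 12 residual degrees of freedom, 18.8 with the prior), and the contrast was the 30 minus 6 month change in the oculomotor nucleus minus that in the cord. Tests were 2-sided, with Benjamini-Hochberg adjustment over the 9482 probe sets and calls at an adjusted p under 0.05. The fit was tested on simulated data. Alternatives covered scaling, floor, filter, arrays in the fit, spread, array weights, replicate block, arrays that stand apart, neighbouring tissue and leaving out each array.

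Named genes are the 10 of each direction with the smallest p of the difference, those called within a tissue (up to 10 rises and 10 falls each), up to 4 members of each list and 6 fixed markers. The 38 lists hold 1074 members, of which 879 were on the array and 662 were kept, each represented by its brightest probe set. The contrast, the lists and the rule were chosen with earlier results of these data known. Promoter sequences are from RefSeq, build GRCr8.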

Additional observations from a re-analysis of the deposited data

How the results depend on the processing

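The count of probe sets past the test of the tissue difference was 0 in 28 of 31 alternatives, 2 of them added after the data were seen (a pairing of tissues within each age, and the matrix list without Slc13a4, Igf2 and Col1a1 as a covariate). It was 2 with no filter (Slc22a24 and an unnamed probe set, both too dim to be kept otherwise), and 1 with the extracellular matrix and meninges list as a covariate (an unnamed probe set). Leaving out each array gave 0 to 1, the 1 being Rnf25 without 6-month cord replicate 1. All 594 values of the 20 leading genes kept their sign and none passed the test. These genes were picked on the same contrast and arrays, so a kept sign was likely beforehand and is not support for them. The oculomotor count of 20 became 11 with a pseudocount, 8 with no filter, 12 with a stricter filter, 10 with only the 12 arrays, 9 with the replicate block, 12, 10 and 2 with the skeletal muscle, choroid plexus and matrix lists as covariates, 7 with the matrix list less those members, and 11 without the muscle-rich cord arrays. It ranged from 4 to 69 when each array was left out. The cord count of 21 became 7 with array weights, 72 when arrays standing apart formed a block and 0 with the muscle covariate, and ranged from 0 to 43 when each array was left out. The cause of these shifts was not tested. With the replicate number as a block, the tissue difference had 0 calls and the cord 18. In 4 of 18 pairs of same-numbered samples from the 4 groups the deviations from the group means correlated above 0.1, over a range of −0.25 to 0.50. Between tissues of 1 age, all 3 pairs at 30 months did so (0.12 to 0.50), against 0 of 3 at 6 months (0.03 to 0.09) and 0 of 3 at 18 months (−0.06 to 0.03), and 10 of 18 samples correlated best with their own number. The labels name no shared animals, so the numbers were not taken to pair the samples throughout. With oculomotor and cord pools of the same age and number paired (replicate block within each age), the tissue difference had 0 calls and 665 at an unadjusted p under 0.05. With 3 pools a group, differences within the median half-width of 0.427 log2 units could not be told from 0 for a typical probe set before adjustment. The adjusted test asked for more.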
